A study of Mus musculus with 4 samples.

Results

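The Id family holds 4 genes in mouse, Id1, Id2, Id3 and Id4, which encode inhibitors of basic helix-loop-helix (bHLH) transcription factors. They were chosen by name as a family, with the comparison of Usp28 KO and control libraries already known to show a lower Id3 level, and all 4 were found among the 55401 genes of the deposited count table. Polyadenylated RNA had been sequenced from R1 mouse embryonic stem cells. There were 2 control libraries (genotype WT) and 2 of genotype Usp28 KO. Both groups grew in the same medium, N2B27 with the MEK inhibitor PD0325901 (1 μM), the GSK3 inhibitor CHIR99021 (3 μM) and leukaemia inhibitory factor (LIF, 10 ng/ml) on 0.2% gelatin. How Usp28 was disrupted, and whether replicate libraries were separate cultures or clones, is not given in the sources used here, so spread between replicates may be technical.

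An ID protein has a helix-loop-helix domain for dimerisation but no basic region for binding DNA. It pairs with the broadly expressed E proteins (products of Tcf3, Tcf4 and Tcf12) and keeps them, and the tissue-restricted bHLH activators that need them as partners, off their E-box sites. The Id genes are direct targets of bone morphogenetic protein (BMP) signalling through SMAD1, SMAD5 and SMAD9 with SMAD4, and in mouse embryonic stem cells the BMP-induced ID proteins are known for holding back neural differentiation alongside LIF.

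Libraries held 16595196 to 19533608 counts. Expression is given as CPM, reads per 1000000 counts of a library after TMM scaling (a trimmed mean of log ratios between libraries). A log2 fold change below 0 means a lower level in Usp28 KO than in control. The standard error of a log2 fold change was derived from the edgeR test. It is the absolute log2 fold change over the square root of the F statistic. The count of the targeted gene itself, Usp28, was 189 and 197 CPM in the controls and 182 and 177 CPM in the Usp28 KO libraries, so it does not check the genotype label. Summed levels of 7 embryonic stem cell markers ranged from 4763 to 4784 CPM in the controls and from 4014 to 4370 CPM in the Usp28 KO libraries. Tfcp2l1 (-0.54 ± 0.17) and Zfp42 (-0.33 ± 0.17) were lower without overlap of the groups, as were 20.4% of all tested genes. Neither passed the edgeR test (adjusted p = 0.250 and 0.491). Groups overlapped for Pou5f1, Sox2, Nanog, Esrrb and Klf4, with log2 fold changes from -0.16 to 0.11. Of 7 fibroblast markers, Postn, Lum and Dcn had no read in any library and only Thy1 had enough reads to be tested, at 0.358 and 0.694 CPM in the controls and 0.588 and 0.800 CPM in the Usp28 KO libraries. The 4 tested of 6 primitive endoderm markers summed to 8.07 to 11.8 CPM in the controls and 11.2 to 11.6 CPM in the Usp28 KO libraries, and the 3 tested of 6 neural progenitor markers to 34.7 to 36.3 and 32.2 to 37.3 CPM. The 3 tested of 6 mesoderm markers summed to 15.9 to 22.5 and 16.1 to 25.1 CPM. The 3 tested of 6 trophoblast markers summed to 150.8 to 187.8 and 147.5 to 183.1 CPM. Most of the trophoblast sum was Tfap2c, at 128.4 and 160.2 CPM in the controls and 123.1 and 151.7 CPM in the Usp28 KO libraries. The trophoblast markers Cdx2 and Elf5 had 0 to 2 counts a library. Eomes, at 12.5 to 19.95 CPM, was in both lists and made up most of the mesoderm sum. In bulk RNA, fewer cells that express a gene and less RNA per cell cannot be told apart.

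The 4 genes lie on different chromosomes. On mm10, Id1 (ENSMUSG00000042745) spans chromosome 2, 152736251 to 152737410, on the plus strand. Id2 (ENSMUSG00000020644) spans chromosome 12, 25093799 to 25097140, on the minus strand. Id3 (ENSMUSG00000007872) spans chromosome 4, 136143497 to 136145755, and Id4 (ENSMUSG00000021379) chromosome 13, 48261228 to 48266026, both on the plus strand. Their annotated exons cover 1160 bases for Id1, 2438 for Id2, 1791 for Id3 and 3849 for Id4. Id4 overlaps 2 noncoding genes on the other strand, A330033J07Rik and Gm49291, and the strand setting of the read counting is not given in the sources used here. These 2 genes had between 0 and 2 counts in each library.

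Of the 4 genes, 3 (Id2, Id3 and Id4) matched a promoter window of 300 bases in the RefSeq table for GRCm38.p6, from 250 bases before to 50 bases after the start site; Id1 did not match. Each of the 3 windows contributed a stretch of sequence, whatever the direction of change of its gene. A link between motif content and that direction was not tested. Capitals mark motif matches on either strand: GGCGCC is a GC-rich element that SMAD1 and SMAD5 bind, TGACG the shorter form of the cyclic AMP response element, CCAAT the NF-Y box and CANNTG the E-box of bHLH factors. For Id4 (chr13:48260866-48261115, plus strand) the stretch runs from the window's first base to the start site. For Id2 (chr12:25096254-25096342, minus strand) it runs from the window's first base to the next annotated exon of GENCODE M21, and it lies between exons of a longer Id2 transcript that starts further upstream. For Id3 (chr4:136143640-136143669, plus strand), where the bases before the RefSeq start lie inside a longer annotated first exon, it is the 30 bases round the match.
Id2: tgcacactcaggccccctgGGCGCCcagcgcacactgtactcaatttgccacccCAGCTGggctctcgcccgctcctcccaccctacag
Id3: cgctgtcctcggCGTCAgaccagcctaagg
Id4: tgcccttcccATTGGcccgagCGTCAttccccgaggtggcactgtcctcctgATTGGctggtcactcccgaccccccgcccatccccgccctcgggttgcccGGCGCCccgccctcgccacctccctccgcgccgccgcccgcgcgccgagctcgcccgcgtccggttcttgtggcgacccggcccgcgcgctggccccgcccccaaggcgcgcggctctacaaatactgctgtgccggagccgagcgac

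Motifs were searched over the whole window. GGCGCC occurred once in the Id2 window, 231 bases before the start site, and once in the Id4 window, 148 bases before it. It was not found in the Id3 window. Of 32851 promoter windows of this length, 11.9% held it. TGACG occurred once in each of the Id3 and Id4 windows, 170 and 229 bases before the start, and 20.8% of all windows held it. CCAAT occurred 3 times in the Id2 window, 159, 120 and 76 bases before the start, and in 2 places in the Id4 window, 240 and 198 bases before it, against 37.4% of windows with at least 1 match. Id2 had the only E-box of the 3 windows, CAGCTG at 196 bases before the start; CANNTG was present in 72.3% of all windows. No match was found in these 3 windows for CACGTG, the E-box form that MYC binds (7.15% of windows, a subset of CANNTG), for the palindromic SMAD site GTCTAGAC (0.213%) or for the EGR1 site GCGTGGGCG (0.612%). The 250 bases before the start were 62.8% G or C in Id2 and in Id3 and 75.6% in Id4.

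Id3 was the member with the lowest log2 fold change. Its counts were 273 and 133 in replicates 1 and 2 of the control, then 64 and 77 in those of Usp28 KO, or 13.97 and 8.39 CPM against 3.42 and 4.11 CPM. Both Usp28 KO libraries lay below both control libraries, and the 95% exact Poisson intervals of the counts, which cover counting error only, did not meet: the lowest control bound was 7.02 CPM and the highest Usp28 KO bound 5.13 CPM. Control replicate 1 was well above control replicate 2, by 0.74 on the log2 scale, while the Usp28 KO libraries were 0.26 apart. The intervals of the 2 control libraries did not meet each other either. The lower bound was 12.36 CPM for replicate 1 and the upper bound 9.94 CPM for replicate 2. A gap between intervals thus also occurred between replicates of 1 group. The means were 11.2 ± 3.95 CPM in the controls and 3.77 ± 0.483 CPM in the Usp28 KO libraries (SD, n = 2 each). The log2 fold change was -1.57 ± 0.30, a 2.98-fold lower level. Over the 4 pairs of 1 Usp28 KO and 1 control library, the log2 ratio of CPM ran from -2.03 to -1.03. Of 15341 tested genes, 0.261% had a lower log2 fold change. Without control replicate 1, the log2 fold change was -1.16, and without control replicate 2 it was -1.90.

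Id1 carried most of the family's transcripts per exon length, and its groups differed by less than the SD of the controls. Its counts were 428 and 255 in the controls and 281 and 288 in the Usp28 KO libraries, or 21.9 and 16.1 CPM against 15.03 and 15.36 CPM. Control replicate 1 stood apart from the other 3 libraries, and control replicate 2 was only just above the Usp28 KO libraries. The means were 19.0 ± 4.12 and 15.2 ± 0.233 CPM (SD, n = 2 each), with a log2 fold change of -0.32 ± 0.22. Without control replicate 1 it was -0.083, and without control replicate 2 it was -0.54. With library totals in place of TMM scaling, the Id1 groups overlapped.

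Id4 was lower in both Usp28 KO libraries, with close replicates. It had 138 and 123 counts in the controls and 88 and 93 in the Usp28 KO libraries, which was 7.06 and 7.76 CPM against 4.71 and 4.96 CPM. The groups did not overlap, but the counting intervals of the nearest libraries touched, at 5.93 CPM for the lower bound of control replicate 1 and 6.08 CPM for the upper bound of Usp28 KO replicate 2. The means were 7.41 ± 0.490 and 4.83 ± 0.179 CPM (SD, n = 2 each), and the log2 fold change was -0.61 ± 0.26. The 4 pairwise log2 ratios ran from -0.72 to -0.51, the narrowest range of the 4 genes.

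Id2, whose product can also bind the retinoblastoma protein, was the member with the fewest reads and the only one that was higher in the Usp28 KO libraries. It had 30 and 25 counts in the controls and 34 and 43 in the Usp28 KO libraries. This was 1.54 and 1.58 CPM against 1.82 and 2.29 CPM, and the counting interval of each library reached into that of every other. The log2 fold change was 0.40 ± 0.39, about the size of its standard error, and a difference was not detectable at this depth. Without Usp28 KO replicate 2 the log2 fold change was 0.22.

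**Figure D1:**
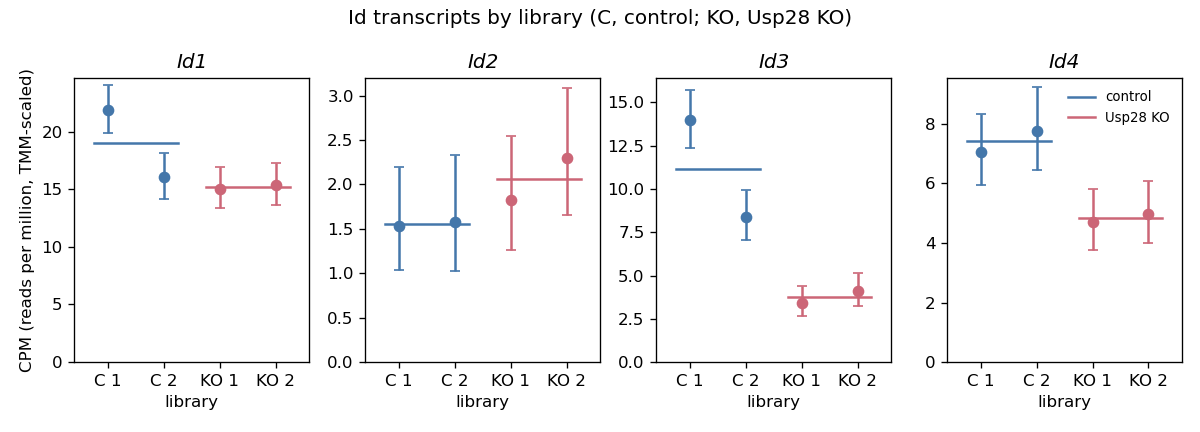
Id1, Id2, Id3 and Id4 in CPM (linear axes from 0, each gene on its own scale) in the 2 control and 2 Usp28 KO libraries; points are libraries, bars 95% counting intervals and horizontal lines group means. The Id3 intervals of the groups do not meet, nor do those of the 2 control libraries, while the Id2 intervals all overlap.

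After TMM scaling, 3 of the 4 genes were lower in both Usp28 KO libraries than in both control libraries, and 1 was higher. With library totals in place of TMM scaling, the Id1 groups overlapped, and only Id3 and Id4 were lower without overlap. Groups that did not overlap were common among all 15341 tested genes, at 20.4% in the lower and 21.4% in the higher direction. By edgeR with Benjamini-Hochberg adjustment, 0 of the 4 genes passed an adjusted p of 0.05, where 0% of all tested genes passed in either direction (at an unadjusted p under 0.05, 2 of the 4 were lower and 0 higher, beside 666 lower and 1052 higher of all tested genes). DESeq2 called 1 of the 4, Id3, as lower, where it called 0.365% of 13411 genes lower and 0.604% higher. limma-voom called none of the 4 and none of all tested genes. Since the family was picked with this comparison known, these counts describe the genes and support nothing further. All 4 genes passed the filter on low counts.

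The make-up of the family can be read within a library, free of library scaling, from CPM per kb of exon. On that scale Id1 was the most abundant member in every library, followed by Id3, then Id4 in all 4 libraries, with Id2 lowest. In control libraries Id1 stood at 16.4 ± 3.56, Id3 at 6.24 ± 2.21, Id4 at 1.93 ± 0.127 and Id2 at 0.638 ± 0.0119 CPM per kb. In Usp28 KO libraries these levels were 13.1 ± 0.198, 2.10 ± 0.269, 1.26 ± 0.0467 and 0.843 ± 0.138 CPM per kb (SD, n = 2 in each case). Neighbours in this order were further apart than their SDs in both groups.

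Id3 made up 26.8% and 22.1% of the summed Id level per kb in the control libraries, replicates 1 and 2, and 11.4% and 12.9% in replicates 1 and 2 of Usp28 KO. Its share was lower in both Usp28 KO libraries. The Id1 share was 64.8% and 65.4% in the controls and 77.0% and 74.5% in the Usp28 KO libraries. The Id3 level relative to Id1, per kb, was 0.413 and 0.338 in the controls and 0.148 and 0.173 in the Usp28 KO libraries. Id4 relative to Id1 was 0.0972 and 0.145 in the controls and 0.0944 and 0.0973 in the Usp28 KO libraries, so control replicate 1 was level with the Usp28 KO libraries in this ratio. Summed over the 4 genes, the level was 29.2 and 21.2 CPM per kb in the controls and 16.8 and 17.8 CPM per kb in the Usp28 KO libraries. The sum was lower in both Usp28 KO libraries, and control replicate 1 was again the highest.

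**Figure D2:**
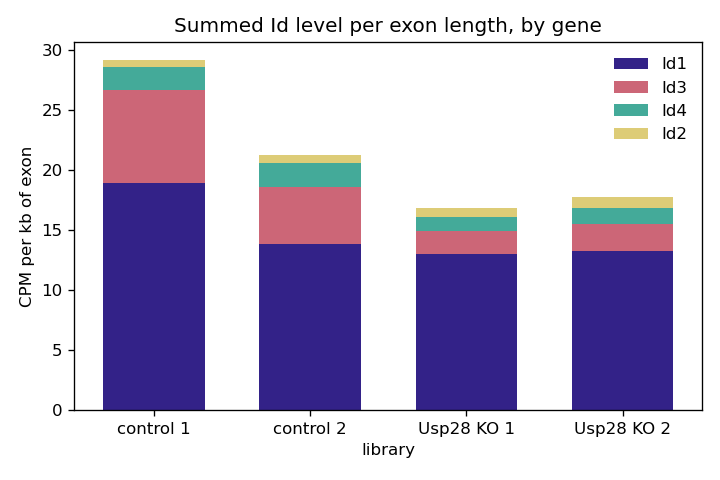
Stacked bars of Id1, Id3, Id4 and Id2 in CPM per kb of exon (axis from 0) for each library. The Id3 segment takes 22.1% to 26.8% of the bar in the controls and 11.4% to 12.9% in the Usp28 KO libraries.

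Libraries differed in how counts depended on transcript GC content, which bears on these genes unequally. Over the 10704 genes with a mean of 5 CPM or more, log2 fold changes and GC content had a rank correlation of 0.323; genes are not independent replicates. Between same-numbered libraries it was -0.028 for number 1 and 0.599 for number 2. The longest transcripts of Id1 and Id3 were 54.7% and 55.6% G or C, above the median of 49.7% over tested genes, and those of Id2 and Id4 were 45.1% and 42.6%. With a GC correction in each library, the log2 fold changes were -0.45 ± 0.20 for Id1, 0.42 ± 0.35 for Id2, -1.72 ± 0.29 for Id3 and -0.54 ± 0.23 for Id4. Directions were as before. For Id3 the adjusted p by edgeR was 0.2799 with this correction and 0.0766 without it.

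The genes closest to each member in pattern over the 4 libraries were found by Euclidean distance between log2 CPM values centred on each gene's mean. For Id3 the nearest of 10704 genes was Etv4, an ETS factor gene downstream of fibroblast growth factor and ERK signalling, at a distance of 0.235. Etv4 had 12.3 and 9.27 CPM in the controls and 3.21 and 4.05 CPM in the Usp28 KO libraries. The next were Ehhadh, which encodes a peroxisomal beta-oxidation enzyme (distance 0.496), and the caudal homeobox gene Cdx1 (0.546). No gene lay within 0.2 of Id3, whereas 227 did for Id1, 261 for Id2 and 127 for Id4. On this unscaled distance a gene with a large fold change has few genes near it. Only 0.261% of tested genes had a lower log2 fold change than Id3, so these numbers do not mark an unusual pattern. The nearest to Id1 were Taf6l, Slc36a1 and Mylpf, to Id2 Nt5dc2, Junb and Pim2, and to Id4 Birc3, Cisd2 and Zfp989. With 4 libraries, such likeness is a description of these values only.

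Upstream in the BMP pathway, transcripts of the ligands, receptors and SMADs were present, and none of them passed the edgeR test. DESeq2 called none either, but gave no adjusted p for Bmp8a, Bmp8b and the receptor gene Acvrl1. At an unadjusted p under 0.05, edgeR counted 2 ligand genes higher, Bmp7 and Bmp8b, 0 lower, and 0 receptor or SMAD genes. Of all 15341 tested genes, 1052 were higher and 666 lower at that p, the background for each unadjusted count below. limma-voom called 0 genes in any of the lists below. Of 8 BMP ligand genes, 4 had enough reads to be tested. Bmp4, the ligand that supports self-renewal together with LIF, stood at 45.7 and 30.6 CPM in the controls and 33.97 and 32.8 CPM in the Usp28 KO libraries (log2 fold change -0.19 ± 0.21). Control replicate 1, the library with the highest Id1 and Id3, also had the highest Bmp4, and the part of this in the Id values was not tested. Bmp7 was at 14.5 and 16.9 CPM in the controls and 21.8 and 26.8 CPM in the Usp28 KO libraries (0.63 ± 0.21; edgeR, adjusted p = 0.295). Bmp8b, singled out after its values were seen, stood at 0.358 and 0.378 CPM in the controls and 1.66 and 1.17 CPM in the Usp28 KO libraries (1.93 ± 0.54; edgeR, adjusted p = 0.194). The median log2 fold change over the tested ligand genes was 0.33, beside -0.0040 over all tested genes, and 0.15 after GC correction.

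All 7 receptor genes were tested, and their median log2 fold change was -0.17. The type I receptor gene Bmpr1a was at 81.95 and 103.1 CPM in the controls and 82.8 and 70.3 CPM in the Usp28 KO libraries (-0.27 ± 0.18). The type II receptor gene Bmpr2 was at 46.99 and 55.2 CPM against 44.99 and 39.6 CPM (-0.27 ± 0.18). Acvr2b and Acvr2a, type II receptor genes as well, differed by -0.046 ± 0.20 and -0.17 ± 0.21. The groups overlapped for 3 of these 4 genes, all but Bmpr2. The remaining receptor genes Acvr1, Acvrl1 and Bmpr1b differed by 0.21 ± 0.22, 0.36 ± 0.48 and -0.46 ± 0.48. Of all 7, 1 was lower without overlap (Bmpr2) and 1 higher (Acvr1), beside 20.4% and 21.4% of all tested genes.

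Among the transducers, Smad1, Smad5 and the common partner Smad4 had log2 fold changes of -0.040 ± 0.20, -0.054 ± 0.17 and -0.093 ± 0.16. Smad9 had only 2 to 6 counts a library and was not tested. Smad4 was at 96.2 and 110.3 CPM in the controls and 90.6 and 103.0 CPM in the Usp28 KO libraries, and the groups overlapped for all 3 SMAD genes. The 10 tested of 14 BMP inhibitor genes had a median of -0.075, with 0 past either test (1 higher and 1 lower at an unadjusted p by edgeR). Smad7, an inhibitory SMAD gene, differed by -0.20 ± 0.19, and the corepressor genes Ski and Skil by -0.27 ± 0.18 and 0.21 ± 0.18. Twsg1, which encodes a secreted BMP modulator, differed by -0.018 ± 0.16. Smad6, the inhibitory SMAD gene that BMP signalling itself induces and which was singled out after its values were seen, stood at 3.17 and 2.90 CPM in the controls and 6.15 and 3.95 CPM in the Usp28 KO libraries (0.73 ± 0.32; edgeR, adjusted p = 0.430). Fst, which encodes the secreted activin and BMP antagonist follistatin and was singled out in the same way, stood at 2.87 and 2.84 CPM in the controls and 1.02 and 2.03 CPM in the Usp28 KO libraries (-0.90 ± 0.41; edgeR, adjusted p = 0.434).

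Of 8 other BMP target genes, 4 were tested and 0 passed by edgeR or DESeq2, with a median of -0.074, and -0.24 after GC correction (1 higher at an unadjusted p by edgeR). Dusp9, a phosphatase gene that BMP induces in embryonic stem cells and whose product restrains ERK, was at 29.5 and 29.5 CPM in the controls and 44.7 and 46.3 CPM in the Usp28 KO libraries (0.63 ± 0.18; edgeR, adjusted p = 0.194). The homeobox gene Msx2 was at 10.2 and 7.63 CPM against 6.15 and 8.59 CPM (-0.28 ± 0.27). Gata2 and Msx1 were at 2.08 CPM or less in every library. DESeq2 gave Msx1 no adjusted p.

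Other regulators of Id genes were read from a short list of 4. Myc, whose family can induce Id2, had 9.88 and 9.71 CPM in the controls and 2.09 and 4.001 CPM in the Usp28 KO libraries and fell by DESeq2 (adjusted p = 0.00453; edgeR, adjusted p = 0.0715). Mycn, a paralog of Myc, differed by -0.071 ± 0.16. Egr1, an early growth response factor that can activate Id3, was at 0.717 and 0.441 CPM in the controls and 0.963 and 1.12 CPM in the Usp28 KO libraries. Atf3, which represses Id1 in epithelial cells, was at 1.18 and 0.883 CPM against 1.71 and 2.08 CPM. Egr1 and Atf3 did not pass either test, by edgeR at adjusted p = 0.608 and 0.484; DESeq2 gave Egr1 no adjusted p.

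**Figure D3:**
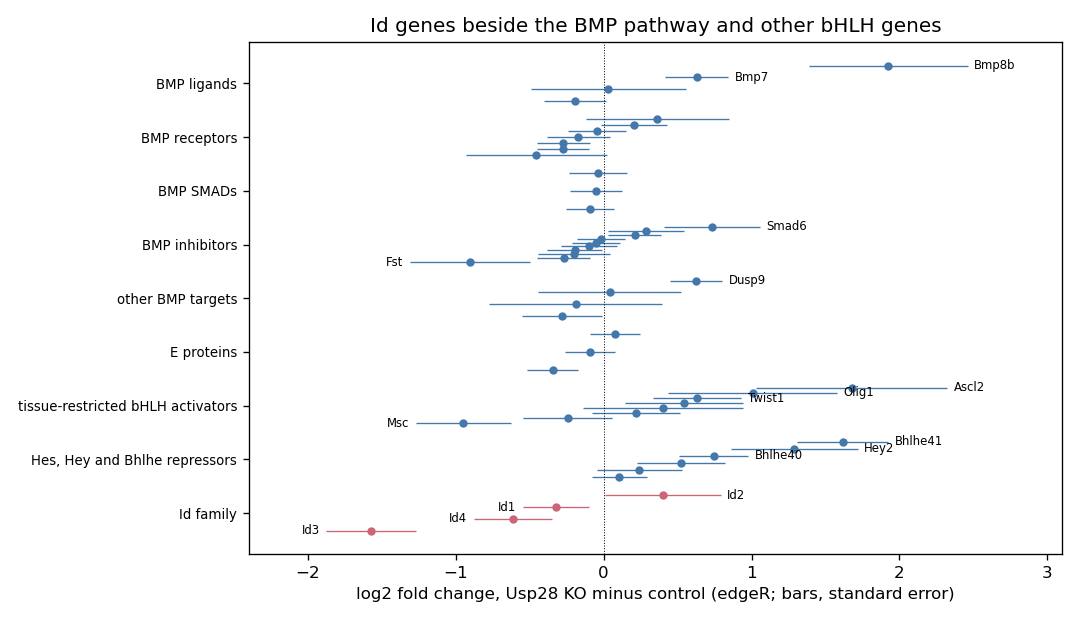
Log2 fold changes (Usp28 KO minus control, points) with standard errors (bars) for tested genes of the BMP pathway, other bHLH genes and the Id family; genes at 0.6 or more either way, and all Id genes, are named. The 3 SMAD genes lie between -0.093 and -0.040, while Id3 lies at -1.57.

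The E proteins, the main partners of ID proteins, were all tested, and 0 passed by edgeR, adjusted or unadjusted, or by DESeq2. Tcf3, which encodes E2A, was at 217 and 223 CPM in the controls and 204 and 260 CPM in the Usp28 KO libraries (0.075 ± 0.17). Tcf12 differed by -0.092 ± 0.17. Tcf4 was at 71.5 and 84.5 CPM against 56.8 and 65.98 CPM, so the groups did not overlap (-0.35 ± 0.17; edgeR, adjusted p = 0.486). Summed per kb of exon, the 3 E protein genes stood at 59.6 and 61.8 CPM per kb in the controls and 55.6 and 70.0 CPM per kb in the Usp28 KO libraries. This sum was 2.04 and 2.92 times the summed Id level in the controls and 3.30 and 3.94 times in the Usp28 KO libraries. The ratio of transcripts was higher in both Usp28 KO libraries, and control replicate 1 had the lowest.

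Of 36 tissue-restricted bHLH activator genes, 8 were tested, 0 passed by edgeR or DESeq2 (1 higher and 1 lower at an unadjusted p by edgeR), and 10 had no read in any library. DESeq2 gave no adjusted p for Ascl2, Olig1 and Scx, and Ascl2 was the one that edgeR counted higher at an unadjusted p. The one with the highest CPM was Tcf15, a mesoderm factor gene that is active in embryonic stem cells and whose product ID proteins hold inactive. It stood at 36.2 and 18.5 CPM in the controls and 37.5 and 26.4 CPM in the Usp28 KO libraries (0.22 ± 0.30), with replicates further apart than groups. Twist1 was at 3.69 and 2.90 CPM against 5.19 and 5.07 CPM (0.63 ± 0.30), and Neurod1 differed by -0.24 ± 0.30. Msc, which encodes the bHLH repressor musculin, was at 4.97 and 4.10 CPM in the controls and 2.19 and 2.51 CPM in the Usp28 KO libraries (-0.95 ± 0.32; edgeR, adjusted p = 0.2997). The list median was 0.47, and 0.24 after GC correction, where Tcf15 was at -0.030.

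Of 11 genes of the Hes, Hey and Bhlhe repressors, which carry their own basic region and bind DNA, 6 were tested. Bhlhe41 had 2.76 and 3.72 CPM in the controls and 7.86 and 11.95 CPM in the Usp28 KO libraries and rose by DESeq2 (adjusted p = 0.00622; edgeR, adjusted p = 0.0715). Its paralog Bhlhe40 was at 123 and 213 CPM against 257 and 305 CPM (0.75 ± 0.23; edgeR, adjusted p = 0.269). The Notch target Hes1 differed by 0.11 ± 0.19, Hes6 by 0.24 ± 0.29 and Hey1 by 0.52 ± 0.30. Hey2, singled out after its values were seen, had few reads, with 15 and 16 counts in the controls. In the Usp28 KO libraries it had 43 and 38 counts (1.29 ± 0.43; edgeR, adjusted p = 0.290). All 6 tested genes had log2 fold changes above 0. Their median was 0.63, and 0.58 after GC correction, beside -0.0040 over all tested genes. By DESeq2 1 of 6 passed as higher, beside 0.604% of 13411 genes. By edgeR 0 passed, and 3 were higher at an unadjusted p under 0.05, beside 1052 of all 15341 tested genes. The lowest of the 6 values stayed above 0 under each scaling but was -0.029 when control replicate 1 was left out, -0.14 when control replicate 2 was, and -0.072 when Usp28 KO replicate 2 was.

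Partners of ID proteins outside the bHLH class gave no call by edgeR, adjusted or unadjusted, or by DESeq2 in 9 tested of 11 genes (median -0.082), of which Ets1 and Pax5 had no adjusted p by DESeq2. The pocket protein genes Rbl1 and Rbl2 differed by -0.14 ± 0.19 and -0.082 ± 0.20, and the ETS genes Elk1 and Elk3 by -0.25 ± 0.21 and -0.46 ± 0.25. Among genes that set ID protein stability, Usp1, the deubiquitinase that protects ID1, ID2 and ID3 in mesenchymal cells, stood at 176 and 227 CPM in the controls and 143 and 175 CPM in the Usp28 KO libraries (-0.34 ± 0.18; edgeR, adjusted p = 0.518). Its cofactor gene Wdr48 differed by -0.045 ± 0.16 and Fzr1, an activator of the anaphase-promoting complex, by -0.14 ± 0.17. The counts measure transcripts, and ID protein levels were not measured.

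Of 5 genes that E proteins are known to regulate, 4 were tested and 0 passed by edgeR, adjusted or unadjusted, or by DESeq2, with a median of -0.024, and -0.11 after GC correction. The cell cycle inhibitor gene Cdkn1a was at 105.6 and 134.8 CPM in the controls and 114.5 and 119.2 CPM in the Usp28 KO libraries (-0.040 ± 0.17). The E-cadherin gene Cdh1, which E proteins repress, differed by -0.0078 ± 0.16. Cdkn2a stood at 34.5 and 30.4 CPM against 44.8 and 40.2 CPM (0.39 ± 0.18, and 0.16 after GC correction; edgeR, adjusted p = 0.454), and Cdkn2b differed by -0.043 ± 0.44.

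**Figure D4:**
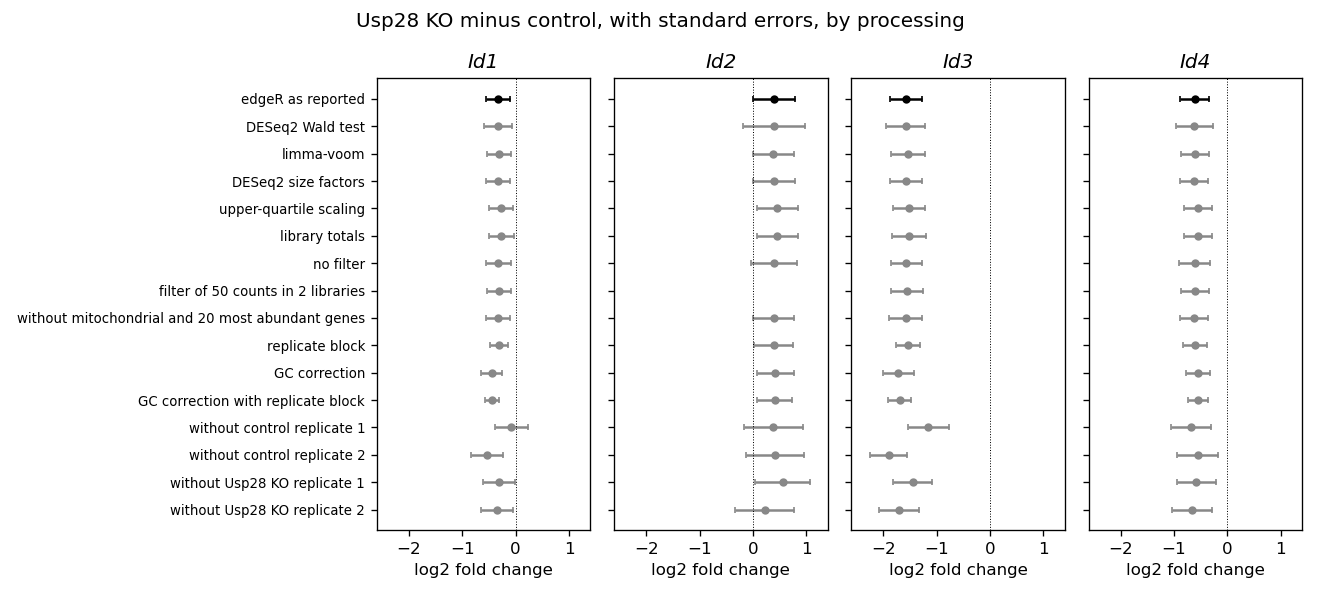
Log2 fold changes of Id1, Id2, Id3 and Id4 (Usp28 KO minus control) with standard errors under the reported edgeR fit (black) and each alternative (grey). Id3 stayed between -1.90 and -1.16, and Id1 came nearest to 0, at -0.083, without control replicate 1.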

How the data were processed

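The deposited table holds the authors' raw read counts per gene for 4 libraries, with exon positions and lengths. HISAT2, featureCounts, DESeq2 and mm10 are named in the submitters' processing notes, without versions; no source used here gives the annotation release or the strand setting. Symbols came from GENCODE M21 (55141 of 55401 identifiers matched). The genes and lists were chosen with earlier results of these data known. Counts were tested in R 4.3.3 with edgeR 4.0.16: filterByExpr (minimum count 10, total 15; 15341 genes), TMM scaling, robust quasi-likelihood fit of group, Benjamini-Hochberg threshold 0.05. limma 3.58.1, DESeq2 1.42.0 (all genes with a read), other scalings and filters, a GC correction (natural spline, 5 degrees of freedom), a replicate block and leaving out each library were alternatives. Named genes were the Id genes, Usp28, list members called by edgeR or DESeq2 and otherwise up to 4 per list with the highest mean CPM, and the 3 nearest in pattern to each Id gene. In simulated counts over 15341 genes, edgeR recovered 64% of 50 genes changed 2-fold and 86% of 50 changed 3-fold, with 7 false calls. Those counts were drawn independently, with variability taken only from edgeR's trend over expression level. They held no effect of GC content or replicate number. In the deposited counts edgeR called 0 genes, and recovery there was not tested.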

Additional observations from a re-analysis of the deposited data

How the results depend on the processing

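All 4 Id genes kept their direction in every alternative that gave a value (15 each for Id1, Id3 and Id4, and 14 for Id2, which a filter of 50 counts in 2 libraries removed). Id3 passed the adjusted p of 0.05 with DESeq2 (-1.58), without a filter (-1.58) and with the replicate block (-1.54). With the GC correction and the block together, Id3 (-1.69) and Id1 (-0.44) both passed. Id3 did not pass with limma-voom (adjusted p = 0.1001) or with the GC correction alone (edgeR, adjusted p = 0.2799). Nor did Id3 pass with other scalings, the removal of abundant genes or the filter of 50 counts. With a library left out Id3 ranged from -1.90 to -1.16 and passed in 3 of those 4 fits, all but the one without control replicate 1. Over the same fits Id1 ranged from -0.54 to -0.083, Id2 from 0.22 to 0.56 and Id4 from -0.68 to -0.56. A lone library in an arm is assumed there to vary like the other group. The cause of these changes in call was not tested.

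Over all genes, edgeR called 0 of 15341 tested genes, and DESeq2 130 of the 13411 with an adjusted p. Of the same 15341 genes, upper-quartile scaling called 21, library totals 29 and the replicate block 1681. The GC correction with the block called 2285 of them. Without a filter 322 genes were called, and after removal of 52 mitochondrial and abundant genes 7. With a library left out, 142 to 346 genes were called. Listed genes outside the Id family and the cell type markers gave 0 calls by edgeR, 2 by DESeq2 and 1 with library totals. Without a filter there were 3, and with the block 11 (4 lower, 7 higher). The GC correction and the block together gave 15 (8 lower, 7 higher). Calls over all genes also rose in these fits, and the listed genes were not tested against them. Of the 7 embryonic stem cell markers, 2 were called lower with the block, where 716 of all 15341 tested genes were. With the GC correction and the block 3 were called lower, where 1427 of all tested genes were. Deviations of same-numbered libraries from their group means correlated at 0.518 across 10704 genes, but nothing in the labels says what a shared number marks, so the block is a hint from the data only. Depth limits Id2 most, with 25 to 43 counts a library.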
